A study of Mus musculus with 309 samples.

Results

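Among the genes that encode inhibitors of cyclin-dependent kinases (CDKs), 6 were followed across mouse mammary tumours: Cdkn1b, Cdkn1c, Cdkn2a, Cdkn2b, Cdkn2c and Cdkn2d. They are the CDK inhibitor genes other than Cdkn1a, taken by symbol with earlier results of these data known. All 6 were found among the 55291 genes of the count table, each in a single row. For each, the level in untreated tumours of every model and the change in each model under each treatment were taken from the counts.

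CDK inhibitors hold the cell cycle before DNA replication. The INK4 proteins p16INK4a (from Cdkn2a), p15 (Cdkn2b), p18 (Cdkn2c) and p19INK4d (Cdkn2d) bind CDK4 and CDK6, the partners of the D cyclins, while the CIP/KIP proteins p27 (Cdkn1b) and p57 (Cdkn1c) also act on the cyclin E and cyclin A kinases. Cdkn2a makes a second protein from another first exon and reading frame, p19ARF, which blocks Mdm2 and so stabilises p53. Cells that have lost RB function are known to carry high p16INK4a, loss of the Cdkn2a and Cdkn2b locus is common in tumours and in cell lines, and p27 is set largely by protein breakdown, which RNA does not show.

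The data are bulk RNA sequencing of polyadenylated RNA from 309 mammary tumours of 24 mouse models, mostly 3 tumours for each model and treatment. There were 64 untreated tumours (18 models), 65 given the MEK kinase inhibitor trametinib (22 models), 66 given erlotinib, an inhibitor of the EGF receptor (22 models), 66 given carboplatin, which crosslinks DNA, with paclitaxel, which stabilises microtubules (22 models), and 48 given antibodies to the immune checkpoints PD1 and CTLA4 (16 models). The labels give models by name only, with no genotype, strain, age, dose or duration. From general knowledge, MMTV-PyMT and MMTV-Neu carry oncogenes driven by a mammary tumour virus promoter, C3-TAG carries the SV40 T antigen, whose large T protein binds RB and p53, and 4T1 and E0771 are established mammary carcinoma lines. Each treatment was compared with the same untreated tumours, so the comparisons share controls.

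Depth ranged from 12074737 to 226179812 estimated counts per tumour, with a median of 78563071, and medians of 39264654 under trametinib and 34281331 under erlotinib against 76879099 in untreated tumours. Levels are CPM, counts relative to the TMM-scaled library size. Tumours of an arm often carried library numbers far from those of the untreated tumours. Models in which the mean numbers of both arms lay within 100 of each other, here called near models, numbered 8 of 16 for trametinib, 8 of 16 for erlotinib, 5 of 16 for carboplatin plus paclitaxel and 2 of 12 for the antibodies. The means took in all untreated tumours of a model. In KPB1-B, T11 and p53RB-626 the untreated tumours had numbers in separate ranges. Some lay within 100 of tumours of an arm for which the model did not count as near. The labels do not say what the numbers stand for. The summed CPM of 5 epithelial markers ran from 13.3 to 4526.96 in untreated tumours of the models compared with trametinib, so markers of the epithelial label were near absent in some mammary tumours. A bulk level cannot tell fewer cells of a type from less RNA per cell. The p-values measure the spread between tumours, which may in part be technical. Where models were pooled, that spread also takes in differences between models in the effect of a treatment.

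Cdkn2a and Cdkn2b lie side by side on chromosome 4 (mm10, minus strand), at chr4:89274471-89294653 and chr4:89306299-89311039, 11646 bases apart. Mtap, which encodes a methionine salvage enzyme, lies 93390 bases from Cdkn2a on the other side. Cdkn2c lies on the same chromosome at chr4:109660876-109667189, 20349837 bases beyond Cdkn2b. Cdkn1b is at chr6:134920401-134925513, Cdkn1c at chr7:143458339-143461050 in an imprinted domain, and Cdkn2d at chr9:21288410-21291407. The Cdkn2a row adds up 2 annotated transcripts with separate starts, so p16INK4a and p19ARF messages are not told apart. An antisense gene, Gm44732, overlaps Cdkn1c, and since the strand of the libraries is not stated, their reads may be mixed.

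The promoters of the Cdkn2a and Cdkn2b locus are shown because these neighbours differ together between models. Each is the RefSeq sequence (GRCm38.p6, minus strand, 5′ to 3′) from 250 bases before to 50 after a start, with capitals marking GGGCGG (the GC box), TTTCCCGC (an E2F-type site), CACGTG (the E-box) or TGTTTAC (a forkhead-type site) on either strand. They cover chr4:89294570-89294869, chr4:89282143-89282442 and chr4:89310983-89311282.
Cdkn2a upstream start: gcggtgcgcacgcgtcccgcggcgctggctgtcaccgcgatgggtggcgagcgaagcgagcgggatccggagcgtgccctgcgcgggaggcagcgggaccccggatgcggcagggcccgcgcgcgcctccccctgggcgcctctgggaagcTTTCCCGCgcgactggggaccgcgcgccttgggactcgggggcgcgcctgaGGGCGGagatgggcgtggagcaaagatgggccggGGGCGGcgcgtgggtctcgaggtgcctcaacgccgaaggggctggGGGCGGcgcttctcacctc
Cdkn2a downstream start: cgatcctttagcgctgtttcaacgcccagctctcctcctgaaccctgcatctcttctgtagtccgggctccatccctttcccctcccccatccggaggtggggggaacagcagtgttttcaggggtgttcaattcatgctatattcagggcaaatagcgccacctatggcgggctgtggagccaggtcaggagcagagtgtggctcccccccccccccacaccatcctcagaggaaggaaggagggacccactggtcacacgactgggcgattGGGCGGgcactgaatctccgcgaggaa
Cdkn2b start: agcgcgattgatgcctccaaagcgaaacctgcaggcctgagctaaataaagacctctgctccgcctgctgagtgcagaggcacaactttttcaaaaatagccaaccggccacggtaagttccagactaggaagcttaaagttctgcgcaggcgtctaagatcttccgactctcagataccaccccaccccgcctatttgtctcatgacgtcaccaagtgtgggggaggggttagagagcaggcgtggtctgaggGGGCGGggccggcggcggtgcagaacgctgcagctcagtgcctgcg
The upstream Cdkn2a promoter holds 3 GC boxes and the E2F-type match, which 1.07% of the 32851 RefSeq promoters hold. The downstream Cdkn2a promoter and that of Cdkn2b hold 1 GC box each, a motif present in 35.7% of promoters. These promoters contain 45, 12 and 18 CpG dinucleotides, against a median of 7 over all promoters. RefSeq promoters were matched for 5 of the 6 genes. The others held 30 CpGs (Cdkn1b), 33 and 8 (Cdkn2c starts) and 22 (Cdkn2d). CACGTG, present in 7.15% of promoters, matched only in the second Cdkn2c promoter among those read, and TGTTTAC, present in 3.65%, in none. No reading of factor binding follows from these letters.

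Per kilobase of annotated exon, Cdkn2a had the highest median level over all 309 tumours, 90.0 CPM per kb. Cdkn1b followed with 17.7, Cdkn2b with 15.5, Cdkn2c with 12.6, Cdkn2d with 10.7 and Cdkn1c with 1.43 CPM per kb. Cdkn2a ranged from 1 to 144790 counts per tumour, with 15 tumours under 10 counts. Cdkn1c ranged from 0 to 31940 counts, and 3 tumours had under 10. Cdkn1b never fell below 650 counts, Cdkn2d below 201 or Cdkn2c below 84.

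All 6 genes differed between untreated models. The test covered the 16 models with at least 3 untreated tumours (62 tumours) by edgeR's quasi-likelihood F test, in which 98.1% of genes passed, so the passing itself sets none of the 6 apart. The sizes did differ. On the log2 scale of model means, 6.77% of 22779 genes spanned a wider range than Cdkn1c and 6.97% a wider range than Cdkn2a, while 84.9% spanned a wider one than Cdkn1b and 75.9% than Cdkn2d.

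Among the INK4 genes, Cdkn2a was abundant in some models and almost absent in others. Untreated p53RB-426 tumours had 519 ± 62.2 CPM (SD, n = 3), with tumours at 454, 526 and 578, and p53RB-624 (433), p53RB-626 (306), T11 (410), T11-APOBEC (465), T12 (346), KPB25L (301) and KPB25L-UV (303) also had model means above 300 CPM. C3-TAG averaged 231 CPM and 2153 averaged 138. At the other end stood MMTV-PyMT (6.43 ± 1.09, n = 3), MMTV-Neu (5.44 ± 3.14, n = 3) and K14-TRT (3.60 ± 0.884, n = 9). The K14-TRT tumours lay between 2.40 and 5.12 CPM, with a median of 3.60. The highest model mean was 144 times the lowest (adjusted p = 2.17e-31, edgeR). In the order of means, neighbours were clear of each other's tumours at 2 steps, from 2153 down to KPB1-A and from KPB1-B (54.3 CPM) down to MMTV-PyMT. The other neighbouring models overlapped.

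Cdkn2b followed a like order with a smaller span. It was highest in T11-APOBEC (134 ± 16.2 CPM, n = 3) and T11 (129 ± 19.8, n = 4), with p53RB-426 next at 84.2 ± 7.38 CPM and the T11 tumours clear above it. MMTV-PyMT had 4.37 ± 0.432 and MMTV-Neu 2.75 ± 0.735 CPM, with no shared values, and the span was 48.6-fold (adjusted p = 6.25e-26, edgeR). Over the 16 model means of log2 CPM, Cdkn2a and Cdkn2b had r = 0.82 and rho = 0.87, as a description with models that differ in tissue make-up. K14-TRT parted the neighbours: with the lowest Cdkn2a, it kept 25.9 ± 6.66 CPM of Cdkn2b (n = 9), from 18.5 to 36.8 with a median of 25.8.

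E0771 and 4T1 tumours were near the floor for both neighbours. Over 13 E0771 tumours of all arms Cdkn2a lay between 0.0270 and 1.88 CPM and Cdkn2b between 0.101 and 1.73. Over 12 treated 4T1 tumours (4T1 had no untreated tumours here) they lay between 0.0338 and 0.843, and between 0.427 and 2.40 CPM. Mtap, the next gene along, was measured at 65.1 to 95.3 CPM in E0771 and 442 to 714 CPM in 4T1. Estimated counts of Cdkn2a were under 10 in 6 of 13 E0771 and 9 of 12 4T1 tumours, with medians of 12 and 7.5, so these levels rest on few reads. K14-TRT instead had 184 to 568 counts of Cdkn2a per tumour. In K14-TRT the medians over all arms were 3.60 CPM of Cdkn2a, 25.8 of Cdkn2b and 424 of Mtap. MMTV-PyMT had medians of 2.64, 3.92 and 42.8 CPM of these genes, and MMTV-Neu 3.21, 2.92 and 23.9. The plot of both neighbours by model shows these 5 models among the others.

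**Figure D1:**
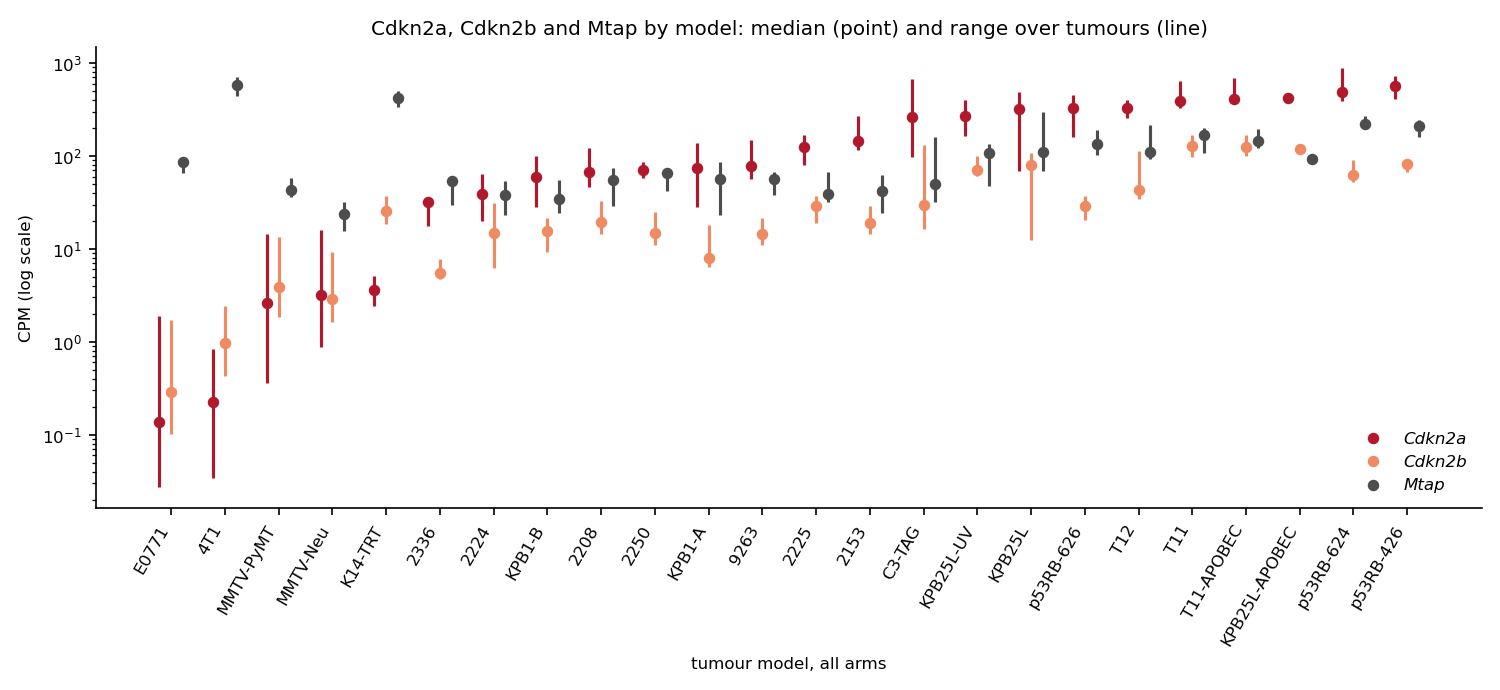
Level of Cdkn2a, Cdkn2b and Mtap (y axis, CPM on a log scale) in each model over the tumours of all arms (x axis, models ordered by median Cdkn2a), with a point at the median and a line from the lowest to the highest tumour. In E0771 and 4T1 both inhibitor genes lie far below Mtap, and in K14-TRT the medians are 3.60 CPM of Cdkn2a and 25.8 of Cdkn2b against 424 of Mtap. MMTV-PyMT and MMTV-Neu have medians of 2.64 to 3.92 CPM for both inhibitor genes, against 42.8 and 23.9 of Mtap.

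Cdkn2c varied less, and its order was another. C3-TAG (83.1 ± 16.7 CPM, n = 4), p53RB-626 (79.9 ± 10.7, n = 6), p53RB-624 (77.1) and K14-TRT (74.9 ± 19.8, n = 9) led, and their tumours overlapped. Model 2208 was lowest at 10.8 ± 1.61 CPM (n = 3) and clear below 2153 (21.5 ± 2.0, n = 3). The span was 7.67-fold (adjusted p = 5.18e-15, edgeR), and the treated 4T1 tumours went higher still, from 81.5 to 148 CPM with a median of 118. Cdkn2c had r = 0.32 with Cdkn2a and 0.34 with Cdkn2d over the 16 model means.

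Cdkn2d was highest in C3-TAG, where 4 tumours had 27.9, 37.2, 65.5 and 73.2 CPM. KPB1-A followed at 45.3 ± 1.11 CPM (n = 3), inside the C3-TAG range and clear above p53RB-624 at 27.6. MMTV-PyMT was lowest at 13.2 ± 1.94 (n = 3), a 3.87-fold span (adjusted p = 3.34e-13, edgeR). C3-TAG thus had the highest mean of Cdkn1b, Cdkn2c and Cdkn2d, yet not of Cdkn2a. For each of those leads its tumours overlapped those of the next model. Model 9263, present only under treatment, had 42.3 to 73.5 CPM of Cdkn2d, with a median of 54.3.

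Of the CIP/KIP genes, Cdkn1b was even. Its model means ran from 167 ± 41.0 CPM in C3-TAG (n = 4) to 53.6 ± 7.67 in MMTV-PyMT (n = 3), 3.11-fold (adjusted p = 1.24e-12, edgeR), and of 15 neighbouring steps only that from 2153 (158 ± 18.6) to KPB1-A was clear. The 6 KPB1-B tumours, with a mean of 166 CPM, ran from 123 to 231 with a median of 144.

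Cdkn1c was low in many models and high in a few. Among models with untreated tumours, p53RB-426 had 36.4, 53.1 and 87.9 CPM and p53RB-624 averaged 43.7 ± 3.25 CPM (n = 3). The like-named p53RB-626 tumours had 0.893 ± 0.301 CPM (n = 6), from 0.505 to 1.16 with a median of 0.996, and KPB1-A 0.342 ± 0.0812 (n = 3). The span of model means was 173-fold (adjusted p = 5.05e-17, edgeR). Model means do not always describe the tumours: the 3 KPB25L tumours had 0.925, 2.06 and 50.5 CPM. The highest levels of all were in models present only under treatment. Over all arms, 2336 ran from 184 to 527 CPM with a median of 418, and 2225 from 127 to 317 with a median of 219. Model 2224 had a median of 0.431 CPM with a tumour at 23.5, and 4T1 ran from 0 to 1.93. In 2336 the means were 505 ± 19.5 CPM under erlotinib, 422 ± 36.7 under trametinib and 227 ± 37.3 under carboplatin plus paclitaxel (n = 3 each), with no untreated tumours to set them against.

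**Figure D2:**
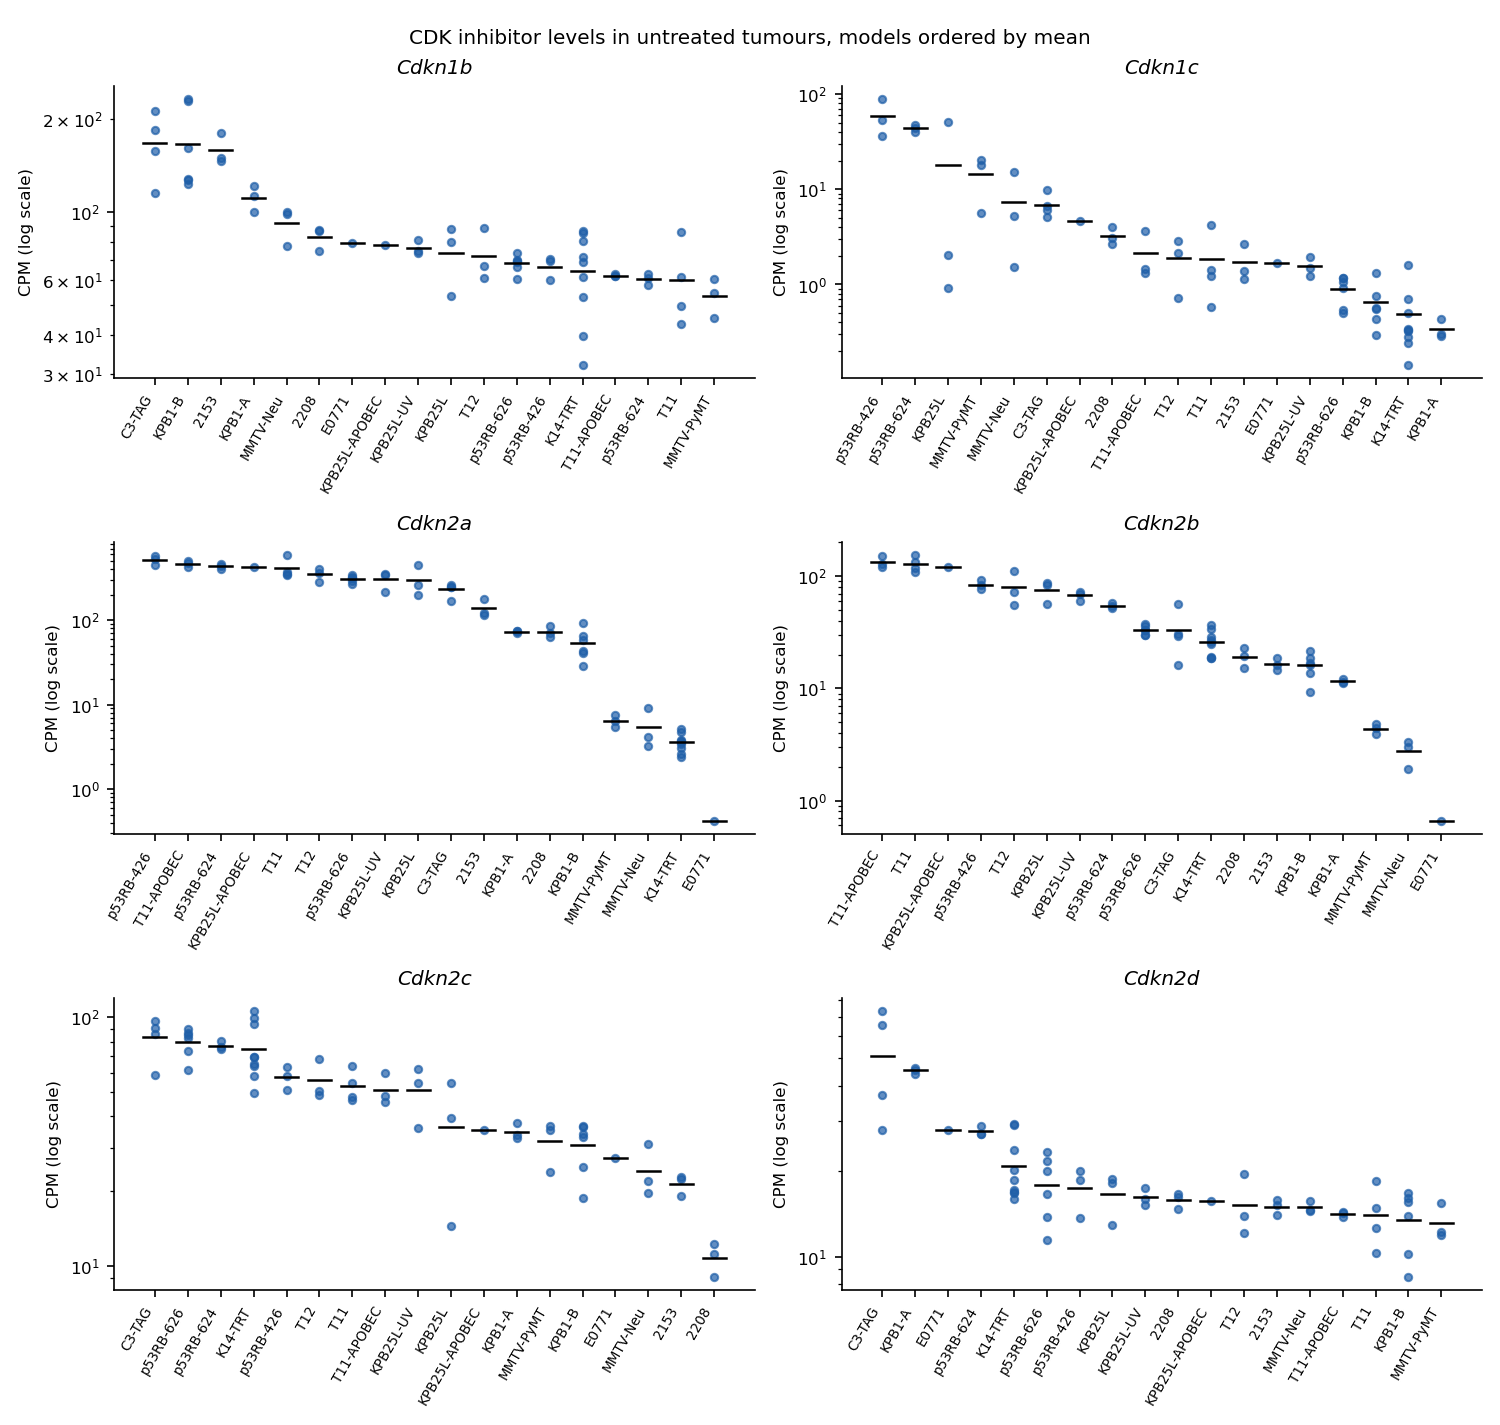
Untreated level (y axis, CPM on a log scale) of each of the 6 genes by model (x axis, ordered by mean), each point a tumour and each black bar a model mean. The axis ranges differ between panels: Cdkn1b and Cdkn2d stay within a narrow band, while Cdkn2a, Cdkn2b and Cdkn1c reach 519, 134 and 59.1 CPM in the highest model mean and lie under 10 CPM in others.

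The genes most like each of the 6 over the 16 untreated model means were looked up among the 11026 genes whose log2 CPM averaged 2 or more, by Pearson's r. Cdkn2b had the closest, Bmp1 (0.95), Apcdd1 (0.95) and Runx2 (0.95), which encode a procollagen protease, a Wnt inhibitor and a bone transcription factor. Cdkn2a was followed by Myh10 (0.92), a non-muscle myosin, Sulf1 (0.90), a heparan sulfatase, and Apbb2 (0.89). For Cdkn1b they were Rell1 (0.92), Itgb8 (0.88), an integrin subunit, and Fat1 (0.88), an atypical cadherin. Cdkn2c had Fam111a (0.90), Atp10a (0.89) and Septin8 (0.84), Cdkn2d had Zw10 (0.82), Pole (0.81) and Helb (0.80), and Cdkn1c had Sugp2 (0.85), Ddhd2 (0.82) and Inpp5a (0.81). As the highest of 11026 correlations over only 16 means, these values are high by selection, and none was tested. Rb1 means were 10.7, 16.5 and 19.1 CPM in the 3 p53RB models and 63.2 CPM in C3-TAG. Over the 54 untreated tumours compared with trametinib, Rb1 had a median of 19.1 CPM (10.2 to 72.8). Over the 16 models Cdkn2a had r = -0.42 with Rb1. Cdkn2d had r = 0.77 with Cdkn1a (rho = 0.59), and Mtap had r = 0.70 with Cdkn2b, 0.60 with Cdkn2c and -0.61 with Cdkn1b.

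Under trametinib, both CIP/KIP genes rose and 2 INK4 genes fell, set against 36.9% of all genes called in this comparison (17.4% higher, 19.5% lower). The fit took 48 trametinib and 54 untreated tumours of 16 models with the model as a term, tested by edgeR's quasi-likelihood method with Benjamini-Hochberg adjustment over all genes. Cdkn1b, which encodes p27, went from a median of 76.1 CPM (43.5 to 231) to 95.5 CPM (54.0 to 263), a log2 change of 0.29 ± 0.0695 (SE, adjusted p = 0.000482), with higher model means in 14 of 16 models. Cdkn1c, which encodes p57, went from a median of 1.60 CPM (0.290 to 87.9) to 5.14 (0.239 to 118), a log2 change of 0.96 ± 0.231 (adjusted p = 0.000545, edgeR), higher in 13 of 16. The tumours of the arms overlapped widely for both genes.

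Cdkn2c, which encodes p18, went from a median of 47.1 CPM (9.07 to 97.1) to 33.3 (3.78 to 118) under trametinib, a log2 change of -0.30 ± 0.0760 (adjusted p = 0.000937, edgeR), higher in 4 of 16 models. Cdkn2b fell with a log2 change of -0.19 ± 0.0790 (adjusted p = 0.0464, edgeR), also higher in 4 of 16, from a median of 31.5 CPM to 27.6. Its call was lost in 14 of 19 fits that left out a model or a replicate number (each of the 3 numbers and 2208, C3-TAG, E0771, KPB1-A, KPB1-B, MMTV-Neu, p53RB-426, p53RB-626, T11, T11-APOBEC and T12). The change was smallest without T12 (-0.12, adjusted p = 0.221) and E0771 (-0.13, adjusted p = 0.153). Cdkn2a (-0.03 ± 0.101, adjusted p = 0.862) and Cdkn2d (-0.08 ± 0.0730, adjusted p = 0.415) did not pass. In the 8 near models alone, Cdkn1b kept its call (0.26 ± 0.0616, adjusted p = 0.00187, edgeR), and Cdkn1c (0.72 ± 0.281, adjusted p = 0.0559), Cdkn2c (-0.21 ± 0.102, adjusted p = 0.141) and Cdkn2b (-0.21 ± 0.124, adjusted p = 0.216) did not. With 1 difference per model tested over the 16 models by limma, Cdkn1c kept its call, and Cdkn1b (0.28, adjusted p = 0.0765), Cdkn2c (-0.31, adjusted p = 0.138) and Cdkn2b (-0.26, adjusted p = 0.290) did not. Mean model differences of Cdkn1c were 0.96 (SD 0.44, higher in 8 of 8) in the near models and 0.85 (SD 1.59, higher in 5 of 8) in the others.

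Erlotinib left fewer calls, 5.74% of all genes (2.37% higher, 3.36% lower), and among the 6 CDK inhibitor genes only Cdkn2d passed. Cdkn2d, which encodes p19INK4d, had a median of 15.5 CPM (5.18 to 48.6) against 15.9 (8.49 to 73.2) with a log2 change of -0.27 ± 0.0681 (adjusted p = 0.0122, edgeR), higher in 4 of 16 models. The call was lost without any 1 of the 3 replicate numbers (-0.19, -0.30 and -0.30, adjusted p = 0.217, 0.0652 and 0.122) and in the 8 near models (-0.19 ± 0.0695, adjusted p = 0.236). With 1 difference per model it was -0.27 (adjusted p = 0.827, limma). Cdkn1b was higher in 13 of 16 models at 0.14 ± 0.0600 without passing (adjusted p = 0.134), and it passed without C3-TAG (0.19, adjusted p = 0.0408) or KPB1-B (0.20, adjusted p = 0.0326). Cdkn1c (0.50 ± 0.246, adjusted p = 0.214), Cdkn2a, Cdkn2b and Cdkn2c also missed the threshold.

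Set directly against each other in 22 models, trametinib and erlotinib differed in Cdkn1c, 0.58 ± 0.192 higher under trametinib on the log2 scale (adjusted p = 0.0185, edgeR, higher in 15 of 22 models), and in Cdkn2d, 0.14 ± 0.0527 higher (adjusted p = 0.0336, 13 of 22), where 25.4% of all genes were called (12.9% higher, 12.5% lower). The model means of both arms had library numbers within 100 of each other in all 22. The Cdkn1c call was lost in 7 of 25 fits that left out a model or a replicate number (2153, 2224, T11, T11-APOBEC and each number; 0.43 to 0.62). The Cdkn2d call was lost in 10 of 25 (2336, 4T1, C3-TAG, KPB1-B, p53RB-426, p53RB-624, T11, T11-APOBEC and numbers 1 and 3), with 0.07 without number 1 (adjusted p = 0.536). Cdkn2b passed without MMTV-PyMT alone (-0.22, adjusted p = 0.0102). With 1 difference per model by limma neither call held (Cdkn1c 0.50, adjusted p = 0.332; Cdkn2d 0.14, adjusted p = 0.264).

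Under carboplatin plus paclitaxel Cdkn1b was lower, where 24.2% of all genes were called (14.2% higher, 9.99% lower). Its median was 62.5 CPM (24.1 to 203) against 76.1 (43.5 to 231), a log2 change of -0.39 ± 0.0975 (adjusted p = 0.00219, edgeR), with higher means in 5 of 16 models. The other 5 genes did not pass. Cdkn2c came nearest (-0.19 ± 0.0751, adjusted p = 0.0597) and passed without KPB25L (-0.26, adjusted p = 0.00126) or MMTV-Neu (-0.24, adjusted p = 0.0142). Cdkn1a, the p53 target that encodes p21, went from a median of 49.3 CPM to 142 (log2 change 1.46 ± 0.128, adjusted p = 8.78e-15, edgeR; 15 of 16 models), while none of the 6 genes was called higher. In the 5 near models Cdkn1b had the opposite sign (0.14 ± 0.126, adjusted p = 0.711), with a mean model difference of 0.12 (4 of 5 higher) against -0.65 in the other 11 (1 of 11 higher). Against the untreated tumours with set label 1 alone, a label whose meaning is not given, it was -0.24 (adjusted p = 0.139), and with 1 difference per model -0.41 (adjusted p = 0.259, limma). The fall in Cdkn1b and the distance in library number therefore cannot be told apart.

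Under anti-PD1 plus anti-CTLA4 in 12 models, Cdkn1b alone passed, where 10.8% of all genes did (6% higher, 4.8% lower). Its median was 76.6 CPM (41.8 to 182) against 86.6 (45.4 to 231), a log2 change of -0.18 ± 0.0573 (adjusted p = 0.0328, edgeR), higher in 3 of 12 models. The call was lost in 10 of 15 fits without a model or a replicate number (2153, KPB1-A, KPB1-B, MMTV-Neu, p53RB-426, p53RB-626, T12 and each number), and the 15 gave -0.24 to -0.15. In the 2 near models the value was 0.11 ± 0.155 (adjusted p = 0.686), and with 1 difference per model it was -0.17 (adjusted p = 0.595, limma). Against carboplatin plus paclitaxel in 16 models, where 18.1% of genes were called (8.28% higher, 9.78% lower), the antibody tumours had higher Cdkn2c (0.16 ± 0.0567, adjusted p = 0.0317) and Cdkn2d (0.20 ± 0.0646, adjusted p = 0.0215), each higher in 11 of 16 models. The Cdkn2c call was lost in 8 of 19 fits that left out a model or a replicate number (KPB1-A, KPB1-B, MMTV-PyMT, p53RB-426, p53RB-624 and each number; 0.12 to 0.20). The Cdkn2d call was lost in 7 of 19 (4T1, KPB1-A, MMTV-PyMT, p53RB-426 and each number; 0.14 to 0.21). In the near models these values were 0.04 and -0.03 (adjusted p = 0.787 and 0.837, edgeR), and with 1 difference per model 0.16 and 0.19 (adjusted p = 0.462 and 0.417, limma).

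**Figure D3:**
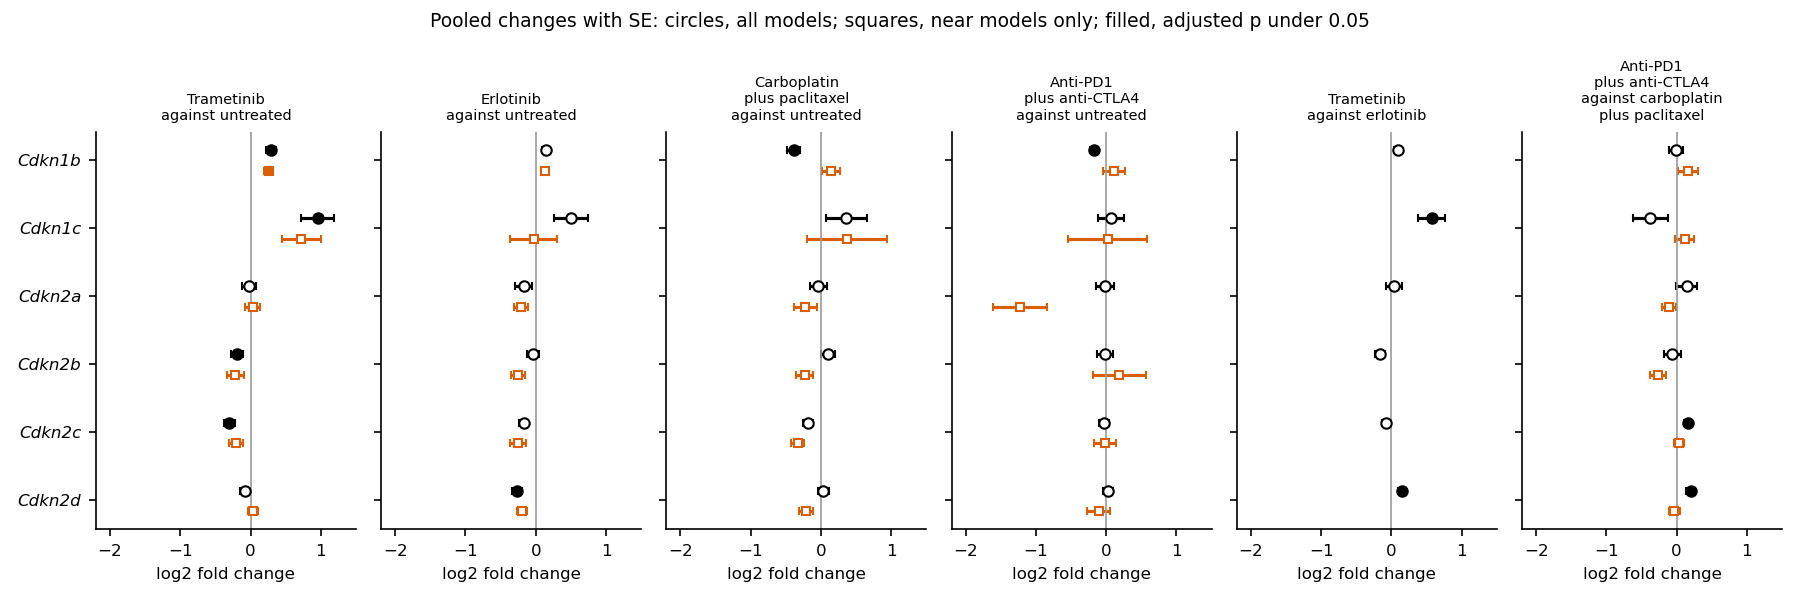
Log2 fold change (x axis) of the 6 genes (y axis) in each of the 6 comparisons, with black circles for all models, orange squares for the near models alone, bars for the standard error and filled marks for an adjusted p under 0.05. Cdkn1c (0.96) and Cdkn1b (0.29) lie right of 0 under trametinib, and Cdkn1b lies left of 0 under carboplatin plus paclitaxel (-0.39).

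Many genes of the kinases these inhibitors act on were lower under trametinib, where 17.4% of all genes were called higher and 19.5% lower. Of the cyclin D kinase genes 3 of 5 were lower and none higher, led by Ccnd1 (-0.68 ± 0.104, adjusted p = 1.56e-07, edgeR), lower in 16 of 16 models, and Cdk4 (-0.15). Of the cyclin E and A kinase genes 6 of 6 were lower, with Ccne1 at -0.65 and Cdk2 at -0.30. Of 11 RB family and E2F genes 8 were lower and 1 higher, with the repressive E2F factors E2f8 (-0.78) and E2f7 (-0.73) leading. Genes of dividing cells were lower in 10 of 10, with Mcm5, a replicative helicase subunit, at -0.69, and a list median of -0.63 against -0.01 over all genes. Among 9 tested genes of p27 turnover and its FOXO activators 4 were lower, including Skp2, the ubiquitin ligase subunit that marks p27 for breakdown (-0.44), and Kpna2 (-0.37), an importin. The median of that list was -0.06 against -0.01 over all genes.

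The other lists under trametinib are to be read against the 17.4% of all genes called higher and 19.5% called lower, and counts near those shares are no result about a list. Of 9 TGF-beta genes, a pathway known to induce Cdkn2b, 2 were higher and 2 lower, led by the ligands Tgfb2 (0.75, higher in 15 of 16 models) and Tgfb3 (0.58). Of 9 imprinted neighbours of Cdkn1c 4 were higher and 2 lower, with Slc22a18, a transporter of the same domain, at 0.84 and the long non-coding Kcnq1ot1, which silences the domain in cis and overlaps Kcnq1 on the other strand, at -0.61. Of 8 Polycomb genes, which repress Cdkn2a and Cdkn2b, 3 were lower, with the methyltransferase Ezh2 at -0.35, and 1 was higher, the E3 ligase Ring1 (0.16). In the p53 arm Trp53 (-0.27) and the nucleolar protein gene Npm1 (-0.18) were lower, 2 of 6, and beside the locus Mtap was lower (-0.21).

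With erlotinib, 2.37% of all genes were called higher and 3.36% lower, and whether a list differed between the treatments was not tested. Lower were 4 of 6 cyclin E and A kinase genes, with Ccne1 at -0.39 and Cdk2 at -0.15, 1 of 11 RB and E2F genes (E2f1, -0.20) and 8 of 10 dividing-cell genes, with Mcm5 at -0.37 and the mitotic activator Cdc20 at -0.41 (list median -0.39). Of the p27 turnover genes 2 of 9 were lower, Kpna2 (-0.33) and Cks2 (-0.23), and of the Polycomb genes Cbx7 was higher (0.22). Trp53 was lower (-0.18), and none of the cyclin D, TGF-beta, imprinted or locus-neighbour genes passed.

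With carboplatin plus paclitaxel, where 14.2% of all genes were called higher and 9.99% lower, 3 of 6 genes of the p53 arm were higher, among them Cdkn1a and Ccng1, another p53 target (0.50, higher in 12 of 16 models). Cyclin E and A kinase genes were lower in 3 of 6 (Cdk2 at -0.16, Ccne2 at -0.36) and RB and E2F genes in 4 of 11 (E2f4 at -0.17, E2f5 at -0.15). Skp2 (-0.30) and the Polycomb genes Ezh2 (-0.26) and Rnf2 (-0.22) were lower, as were 2 of 10 dividing-cell genes, Mki67 (-0.39) and Mcm2 (-0.22). Slc22a18 was higher again (0.84, 14 of 16 models) and Kcnq1ot1 lower (-0.42). Under the antibodies the imprinted H19 was lower (-0.95, lower in 11 of 12 models) and Kcnq1 higher (0.39). Of the p53 arm 2 of 6 genes were lower there, Ccng1 (-0.24) and Trp53 (-0.19), as were 2 of 8 Polycomb genes, among them Bmi1 (-0.19). Ccne2 (-0.32) and E2f8 (-0.24) were also lower and Cdc20 (0.22) higher. Of all genes, 6% were called higher and 4.8% lower under the antibodies.

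Markers of other cell types moved in the same comparisons. All 5 fibroblast markers rose under trametinib (median summed level 6385 CPM against 4223) and all 4 endothelial markers fell (119 against 185 CPM). Also higher under trametinib were 3 of 5 T and NK cell and 2 of 4 adipocyte markers. Lower were all 3 tested erythrocyte and 2 of 5 epithelial markers. Of all genes, 17.4% were called higher and 19.5% lower there. All 6 skeletal muscle markers were lower under the antibodies (17.6 against 123 CPM), and none of the 6 passed under trametinib or erlotinib. Under the antibodies 2 of 4 neutrophil and 2 of 5 T and NK cell markers were higher, and 2 of 4 adipocyte markers lower. Of all genes, 6% were called higher and 4.8% lower under the antibodies. Higher under carboplatin plus paclitaxel were 4 of 5 macrophage (1129 against 1072 CPM), 3 of 4 neutrophil (23.9 against 17.5) and 3 of 5 T and NK cell markers (6.97 against 3.27). So were 2 of 4 endothelial markers (218 against 185 CPM). Of all genes, 14.2% were called higher under carboplatin plus paclitaxel. Trametinib tumours had all 5 fibroblast markers higher than erlotinib tumours (4728.6 against 3069 CPM) and all 4 endothelial markers lower (114 against 169). There 4 of 5 T and NK cell markers were also higher, and all 3 tested erythrocyte and 2 of 5 macrophage markers lower. Antibody tumours had all 6 muscle markers lower than tumours given carboplatin plus paclitaxel (24.4 against 76.6 CPM) and all 4 erythrocyte markers higher (128 against 33.6). Lower in the antibody tumours were also 3 of 5 fibroblast, 3 of 5 macrophage and 3 of 4 adipocyte markers. Lists with at most 1 marker called in a direction are left out here. For trametinib against erlotinib, 12.9% of all genes were called higher and 12.5% lower. For the antibodies against carboplatin plus paclitaxel these shares were 8.28% and 9.78%. The part of the markers in the changes of the 6 CDK inhibitor genes was not tested.

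Pooled values covered models that moved in different ways. An F test for treatment effects that differ by model was called for 6 of 6 genes under trametinib, 5 of 6 under erlotinib, 6 of 6 under carboplatin plus paclitaxel and 4 of 6 under the antibodies. Of all genes, 79%, 73.9%, 65.7% and 50% were called by that test.

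Each model was then taken alone, in a fit of all 309 tumours with a mean for each of the 100 groups. The spread of a gene was shared over all groups. The SE and p of a change therefore do not show the spread of its own few tumours. Over the 6 genes, 11 of 96 changes were called under trametinib (4 higher, 7 lower), 7 of 96 under erlotinib (2 higher, 5 lower), 20 of 96 under carboplatin plus paclitaxel (10 higher, 10 lower) and 2 of 72 under the antibodies (both lower). Those shares, 11.5%, 7.29%, 20.8% and 2.78%, stand against 8.04% of all gene and model pairs under trametinib (3.67% higher, 4.37% lower), 6.16% under erlotinib (3.03% higher, 3.13% lower), 9.16% under carboplatin plus paclitaxel (4.93% higher, 4.24% lower) and 2.86% under the antibodies (1.54% higher, 1.32% lower). Near models held 2, 1, 1 and 1 of these calls, among 48, 48, 30 and 12 tests. Under trametinib these were Cdkn2b in E0771 and Cdkn2c in KPB25L-UV, and under erlotinib Cdkn2c in KPB25L-UV. Under carboplatin plus paclitaxel it was Cdkn1c in KPB1-A, and under the antibodies Cdkn2a in MMTV-PyMT. The share of all genes called in near models alone is not given. For the other calls the mean library numbers of the arms lay further apart, and that distance and the treatment were not told apart. Of the 40 calls, 17 were also made when the fit held that model and those 2 arms alone. Below, a call lost without a replicate number is one lost when the tumours of that number were left out of every group.

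**Figure D4:**
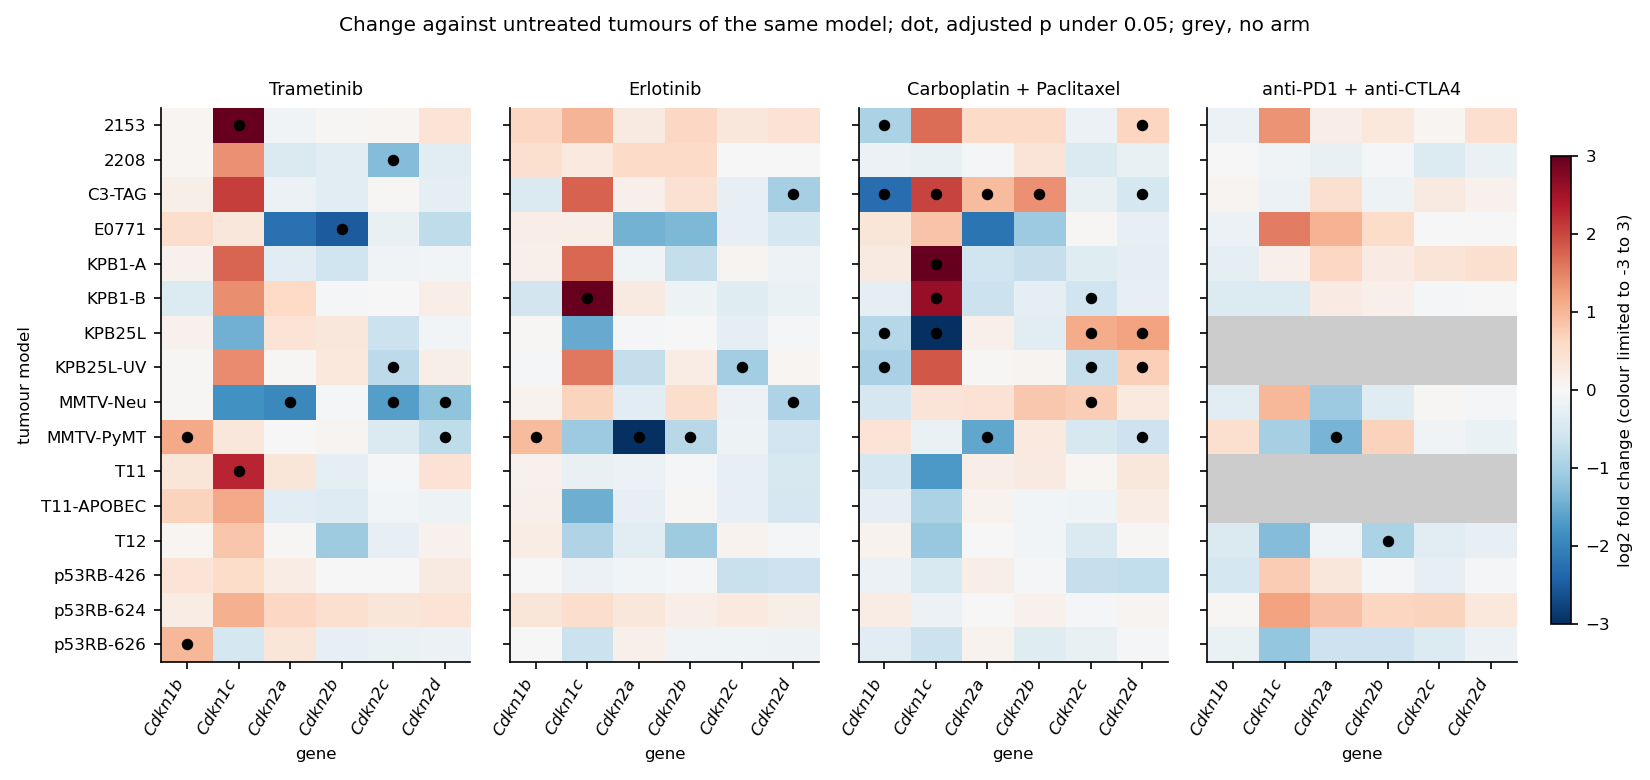
Log2 fold change in each model (rows) of the 6 genes (columns) under each treatment (panels), as colour from blue (lower) to red (higher) limited to -3 and 3, with black dots on called changes and grey where a model had no such arm. The dotted changes number 11 under trametinib, 7 under erlotinib, 20 under carboplatin plus paclitaxel and 2 under the antibodies.

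In MMTV-Neu, 3 INK4 genes were lower under trametinib. Cdkn2c went from 19.7, 21.9 and 31.0 CPM to 7.22, 7.55 and 8.36, a log2 change of -1.65 ± 0.224 (adjusted p = 4.64e-10, edgeR). Cdkn2d went from 14.5, 14.6 and 15.7 CPM to 5.21, 6.94 and 7.28 (-1.21 ± 0.234, adjusted p = 1.50e-05), and Cdkn2a from 3.21, 4.08 and 9.03 to 0.874, 1.23 and 2.14 (-1.93 ± 0.413, adjusted p = 9.21e-05). The groups did not overlap for any of these genes, and each call held without any replicate and in the fit of that model alone. The mean log2 CPM of the dividing-cell genes was 4.03 under trametinib against 5.84 untreated, and the summed fibroblast markers ran from 1019 to 1573 CPM against 253 to 595. Under erlotinib, Cdkn2d in this model was 5.18, 6.92 and 11.3 CPM (-0.93 ± 0.232, adjusted p = 0.000467, edgeR) and the dividing-cell mean 2.46, and that call was lost in the fit of the model alone (adjusted p = 0.146).

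Model 2208, already lowest in Cdkn2c, went lower under trametinib, with mean library numbers of the arms 477 apart. Its tumours had 9.07, 11.2 and 12.3 CPM untreated and 3.78, 4.21 and 5.15 under trametinib, without overlap (-1.30 ± 0.227, adjusted p = 2.37e-06, edgeR), and the dividing-cell mean was 4.74 against 6.79. Cdkn2c in KPB25L-UV, 35.9, 54.7 and 62.1 CPM untreated, was called lower under 3 treatments. Under erlotinib it was 18.9, 24.9 and 29.98 (-1.05 ± 0.220, adjusted p = 0.00107), without overlap, a call lost without replicate 1 (-0.85, adjusted p = 0.0681) or 2 (-0.84, adjusted p = 0.283). Under trametinib it was 21.9, 26.9 and 40.3 (-0.78 ± 0.219, adjusted p = 0.0359) and under carboplatin plus paclitaxel 25.7, 32.4 and 36.6 (-0.69 ± 0.218, adjusted p = 0.0187), both with overlap. The trametinib call was lost without each replicate (-0.85 to -0.66, adjusted p = 0.0872 to 0.707), as was the carboplatin plus paclitaxel call (-0.75 to -0.48, adjusted p = 0.0559 to 0.284). All 3 comparisons share the same untreated tumours.

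In MMTV-PyMT, Cdkn1b rose under both kinase inhibitors. Cdkn1b went from 45.4, 54.7 and 60.7 CPM to 104, 107 and 141 under trametinib (1.13 ± 0.252, adjusted p = 0.000141, edgeR) and to 91.2, 107 and 114 under erlotinib (0.96 ± 0.251, adjusted p = 0.00186). Neither treated group overlapped the untreated tumours, and the erlotinib call was lost without replicate 2 (0.83, adjusted p = 0.10004). Cdkn1b in p53RB-626 was also called under trametinib, with 83.2, 86.8 and 237 CPM against a range of 60.7 to 73.3 and a median of 69.0 in 6 untreated tumours. That call (0.99 ± 0.209, adjusted p = 0.000472) rested on the tumour at 237 CPM, since without replicate 2 the change was 0.33 (adjusted p = 0.858).

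The little Cdkn2a message in MMTV-PyMT fell under 3 treatments. From 5.40, 6.33 and 7.58 CPM untreated it went to 0.359, 0.518 and 0.620 under erlotinib (-3.70 ± 0.444, adjusted p = 3.09e-11, edgeR), which held in every fit run for it. Under carboplatin plus paclitaxel it was 0.821, 1.54 and 4.19 (-1.56 ± 0.393, adjusted p = 0.00122), lost without replicate 2 (-1.28, adjusted p = 0.0794). Under the antibodies it was 0.724, 2.87 and 3.74 (-1.39 ± 0.392, adjusted p = 0.0169), lost without replicate 1 (-0.79, adjusted p = 0.356) or 2 (-1.63, adjusted p = 0.115). None of the treated groups overlapped the untreated one. Adipocyte markers summed to 290 to 547 CPM in the erlotinib tumours against 13.02 to 76.3 untreated. Cdkn2b fell beside it under erlotinib, from 3.91, 4.41 and 4.77 to 1.85, 1.93 and 3.57 CPM (-0.84 ± 0.328, adjusted p = 0.0493), a call lost without replicate 1 (-0.62, adjusted p = 0.368) or 3 (-0.50, adjusted p = 0.408). Cdkn2d was lower in this model under trametinib (7.24, 7.86 and 8.24 against 11.9, 12.2 and 15.4 CPM; -0.76 ± 0.232, adjusted p = 0.00706), lost without replicate 2 (-0.64, adjusted p = 0.141) or 3 (-0.72, adjusted p = 0.0572). Under carboplatin plus paclitaxel it was also lower (7.91, 8.54 and 9.24; -0.62 ± 0.231, adjusted p = 0.0373), a call lost without each replicate (-0.66 to -0.44, adjusted p = 0.101 to 0.412).

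Cdkn1c was called in 2153 and T11 under trametinib and in KPB1-B under erlotinib, higher in each. In 2153 it went from 1.13, 1.37 and 2.66 CPM to 11.4, 13.7 and 17.5 under trametinib (3.04 ± 0.743, adjusted p = 0.000978, edgeR), without overlap and in every fit run for it. The summed fibroblast markers were 7566 to 8393 CPM in those tumours against 962 to 2236. In KPB1-B it went from a range of 0.291 to 1.32 (median 0.561, 6 tumours) to 8.03, 9.80 and 19.2 under erlotinib (4.26 ± 0.607, adjusted p = 1.76e-08), with fibroblast markers at 3250 to 5714 CPM against 1031 to 2474. In T11 under trametinib 5.48, 6.57 and 14.8 CPM stood against 0.578, 1.23, 1.42 and 4.19 (2.28 ± 0.667, adjusted p = 0.0106), with fibroblast markers at 17845 to 23313 CPM against 5022 to 7822. The T11 call was lost without replicate 2 (1.62, adjusted p = 0.303) and against the untreated tumours with set label 1 (1.96, adjusted p = 0.0677). Of the KPB1-B erlotinib tumours 2 were among the 16 tumours highest in skeletal muscle markers, and without those 16 the change was 3.70 (adjusted p = 8.39e-06). In all 3 models the treated and untreated ranges of the fibroblast sum did not overlap. Those ranges did not overlap in MMTV-Neu under trametinib either, where the model difference of Cdkn1c was -1.65, without a call. The part of the fibroblast sum in the changes of Cdkn1c was not tested.

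**Figure D5:**
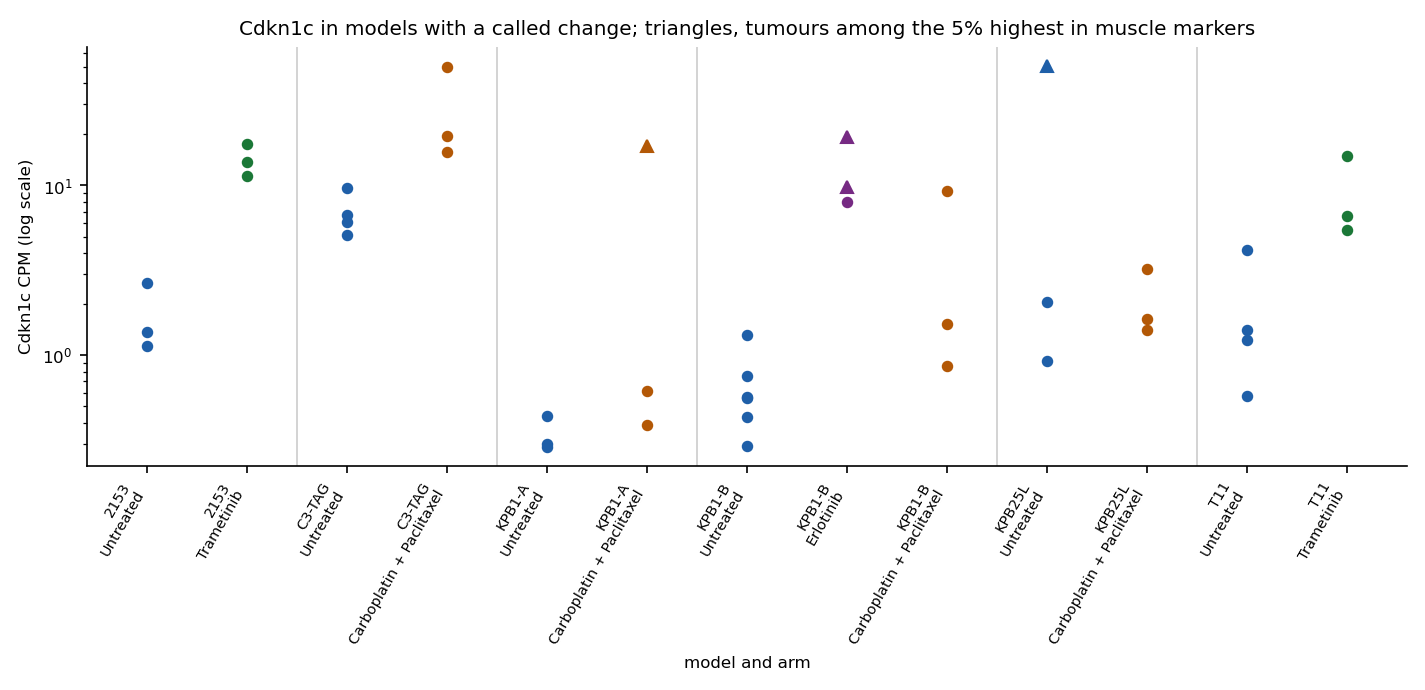
Cdkn1c (log-scaled CPM axis) in the treated and untreated tumours of the models with a called change, each point a tumour coloured by arm, with triangles for the tumours among the 5% highest in skeletal muscle markers. The 2153 trametinib and KPB1-B erlotinib groups lie wholly above their untreated tumours, and the KPB25L untreated group holds a single tumour at 50.5 CPM.

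The Cdkn1c calls in KPB1-A, KPB25L and KPB1-B under carboplatin plus paclitaxel were each lost without replicate number 1. KPB1-A under carboplatin plus paclitaxel had 0.386, 0.618 and 17.0 CPM against 0.290, 0.301 and 0.436 (4.13 ± 0.814, adjusted p = 7.30e-05, edgeR), and without replicate 1 the change was 0.76 (adjusted p = 1). KPB25L had 1.40, 1.64 and 3.22 CPM against 0.925, 2.06 and 50.5 (-3.09 ± 0.739, adjusted p = 0.00117), and without replicate 1 the sign turned (0.73, adjusted p = 0.6254). Without the 16 tumours highest in skeletal muscle markers these changes were 0.53 (adjusted p = 1) and 0.50 (adjusted p = 0.742). Those 16 tumours had a median of 9.44 CPM of Cdkn1c (1.56 to 184), against 2.65 (0 to 527) in the other 293. Both sets mix models, whose Cdkn1c levels differ widely, and the part of muscle in these changes was not tested. KPB1-B under carboplatin plus paclitaxel, at 0.859, 1.54 and 9.29 CPM (2.60 ± 0.597, adjusted p = 0.000845), lost its call without replicate 1 (0.94, adjusted p = 0.483).

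C3-TAG tumours showed opposite changes of the CDK inhibitors under carboplatin plus paclitaxel. Cdkn1b went from 115, 157, 184 and 212 CPM to 24.1, 38.9 and 40.3, without overlap (-2.28 ± 0.251, adjusted p = 1.11e-13, edgeR), and held in every fit run for it. Cdkn1c rose from 5.07, 6.06, 6.70 and 9.71 to 15.7, 19.5 and 49.8 CPM (2.04 ± 0.636, adjusted p = 0.00812), a call lost without replicate 2 (1.56, adjusted p = 0.141). Cdkn2b rose from 16.3, 29.6, 30.2 and 56.1 to 52.1, 72.7 and 132 (1.37 ± 0.295, adjusted p = 8.39e-05), with overlap, lost without replicate 1 (0.91, adjusted p = 0.0549). Cdkn2a rose from 168, 245, 249 and 261 to 274, 377 and 682 CPM (0.95 ± 0.348, adjusted p = 0.0280), lost without replicate 1 (0.57, adjusted p = 0.278) or 2 (0.92, adjusted p = 0.112). Macrophage markers in these tumours summed to 1548 to 2455 CPM against 353 to 1053, and their part was not tested. Under erlotinib C3-TAG had lower Cdkn2d, 19.6, 23.0 and 33.7 CPM against 27.9, 37.2, 65.5 and 73.2 (-1.002 ± 0.219, adjusted p = 0.00175), with overlap, lost without replicate 2 (-0.79, adjusted p = 0.308) and in the fit of that model alone (adjusted p = 0.852). Under carboplatin plus paclitaxel it was 26.9, 34.8 and 43.8 (-0.53 ± 0.216, adjusted p = 0.0484), with overlap too. That call was lost in the refit without the muscle-high tumours (-0.45, adjusted p = 0.1003). No C3-TAG tumour of these arms was among those left out, so that refit kept both groups whole. The call was also lost without replicate 2 (-0.23, adjusted p = 0.615) and with size factors in place of TMM (adjusted p = 0.0529).

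Cdkn1b was also called lower under carboplatin plus paclitaxel in KPB25L-UV (26.9, 30.6 and 58.8 against 73.4, 74.5 and 81.1 CPM; -0.98 ± 0.251, adjusted p = 0.00337, edgeR), where the treated tumours carry library names of KPB25L. In 2153 it was 29.1, 73.4 and 143 against 146, 149 and 180 CPM (-0.95 ± 0.251, adjusted p = 0.00289), and in KPB25L 30.5, 36.5 and 54.4 against 53.6, 79.7 and 88.1 (-0.87 ± 0.251, adjusted p = 0.00813), where alone of these 4 models the groups overlapped. The KPB25L-UV call was lost without replicate 1 (-0.79, adjusted p = 0.0991) or 3 (-0.78, adjusted p = 0.167), that of 2153 without replicate 2 (-0.77, adjusted p = 0.145) or 3 (-0.63, adjusted p = 0.425), and that of KPB25L without replicate 1 (-0.71, adjusted p = 0.117) or 2 (-0.88, adjusted p = 0.107). In none of the 4 models with lower Cdkn1b were the arms near in library number.

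Cdkn2c and Cdkn2d rose in some models under carboplatin plus paclitaxel. In KPB25L, Cdkn2c was 43.2, 81.6 and 109 CPM against 14.5, 39.5 and 54.5 (1.11 ± 0.220, adjusted p = 9.21e-05, edgeR), with overlap, and Cdkn2d 24.2, 25.0 and 65.2 against 12.9, 18.1 and 18.7 (1.2003 ± 0.233, adjusted p = 6.99e-05), without. Both were lost without replicate 2 (0.70, adjusted p = 0.138 and 0.42, adjusted p = 0.485). Cdkn2d was also higher in KPB25L-UV, at 20.7, 27.6 and 32.0 CPM against 15.2, 16.0 and 17.5 (0.72 ± 0.232, adjusted p = 0.0201), lost without replicate 1 (0.58, adjusted p = 0.191) or 3 (0.77, adjusted p = 0.112). In 2153 it was 21.2, 22.4 and 26.9 CPM against 14.0, 15.1 and 15.8 (0.65 ± 0.230, adjusted p = 0.0322), lost without replicate 2 (0.73, adjusted p = 0.125) or 3 (0.47, adjusted p = 0.528). Neither pair of groups overlapped. Cdkn2c was higher in MMTV-Neu (33.5, 41.6 and 45.4 CPM; 0.73 ± 0.218, adjusted p = 0.0374), the opposite of its trametinib change there, and that call was lost without replicate 1 (0.75, adjusted p = 0.162) or 3 (0.59, adjusted p = 0.900). It was lower in KPB1-B (17.0, 17.3 and 26.4 against 18.8 to 36.5 with a median of 33.6; -0.60 ± 0.192, adjusted p = 0.0242), lost without replicate 1 (-0.49, adjusted p = 0.276) or 3 (-0.51, adjusted p = 0.183).

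At the locus with the fewest reads, E0771 under trametinib had 0.101, 0.113 and 0.134 CPM of Cdkn2b against 0.661 in its single untreated tumour (-2.49 ± 0.559, adjusted p = 0.00125, edgeR). That tumour is assumed to vary like the others, and the arms were near in library number. The lowest Cdkn2b count in E0771 was 6, so 1 of the 11 trametinib calls, also 1 of the 2 in near models, rests on a single untreated tumour and few reads. The last call was Cdkn2b in T12 under the antibodies, 40.2, 42.2 and 43.1 CPM against 55.4, 72.7 and 112 (-0.94 ± 0.319, adjusted p = 0.0335), without overlap. It was lost without each replicate (-1.07 to -0.62, adjusted p = 0.0731 to 0.424) and without the muscle-high tumours (-0.97, adjusted p = 0.0558).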

How the data were processed

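RNA from 309 tumours was measured in TruSeq libraries of polyadenylated RNA. Estimated counts per gene were deposited by the authors, per the submitters' processing notes with STAR, SAMtools, Picard and Salmon on mm10, versions not given. Since 8.35% of values were not whole, they were rounded. The second deposited table, which the authors normalized, holds a signal equal to the estimated count over the library's percentile 75 of values above 0, times 1000; it served as an alternative.

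Counts were tested with edgeR 4.0.16 (R 4.3.3) by its quasi-likelihood test with TMM scaling, filterByExpr, a model term and Benjamini-Hochberg adjustment over all genes tested, at a threshold of 0.05. CPM used TMM factors over all tumours, and log2 CPM a prior count of 2. Single-model changes came from 1 fit of 28928 genes with a mean for each group. Leave-outs reused the trended dispersion of the full fit. Alternatives used limma 3.58.1, DESeq2 1.42.0 and, on the normalized signal, log2(value + 1). The fits were tested on simulated data.

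The members and lists were chosen with earlier results of these data known. Context genes were Cdkn1a, Rb1, Trp53 and Mtap; of each pathway list the 2 called genes with the smallest p were named in each pooled comparison, and for each member the 3 most correlated genes, leaving out predicted genes. Replicates are separate tumours by their labels.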

Additional observations from a re-analysis of the deposited data

Results flagged for a closer look

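Of 30 combinations of a gene and a group of 4 to 10 tumours, 3 held a single tumour far from the rest by the share of the range that its gap took, which chance alone does in about 5% of such groups. Cdkn1c was 1.59 CPM in 1 untreated K14-TRT tumour against 0.144 to 0.705 in the other 8. Cdkn2a was 168 CPM in 1 untreated C3-TAG tumour against 245 to 261 in the other 3, and 584 CPM in 1 untreated T11 tumour against 340 to 367. 

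Treatment effects differed between models by the edgeR F test of the model by treatment term, which 50% to 79% of all genes passed. Under trametinib the adjusted p-values were 0.00180 for Cdkn1b, 0.00387 for Cdkn1c, 0.000255 for Cdkn2a, 0.000147 for Cdkn2b, 3.42e-06 for Cdkn2c and 0.000273 for Cdkn2d. Under erlotinib the adjusted p-values were 0.000683 for Cdkn1b, 5.68e-06 for Cdkn1c, 6.81e-09 for Cdkn2a, 0.000336 for Cdkn2b and 0.00375 for Cdkn2d. Under carboplatin plus paclitaxel the adjusted p-values were 1.19e-05 for Cdkn1b, 6.22e-05 for Cdkn1c, 0.0252 for Cdkn2a, 0.00891 for Cdkn2b, 0.000442 for Cdkn2c and 0.000334 for Cdkn2d. Under the antibodies the adjusted p-values were 0.0177 for Cdkn1b, 0.00524 for Cdkn1c, 0.00280 for Cdkn2a and 0.00943 for Cdkn2c.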

How the results depend on the processing

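Values are log2 changes unless another quantity is named, and the causes of these shifts were not tested. Over the 6 genes, the untreated, pooled and by-model tests and the counts of called changes, 282 of the recomputed values kept their direction and their side of the threshold, 43 lost a call, 7 gained one, 21 changed sign and 5 counts moved by over 1.5 times. Leaving out a model or a replicate number gave 654, 79, 5, 52 and 8. Changes that had passed changed sign for Cdkn1b under carboplatin plus paclitaxel and under the antibodies and for Cdkn2d between these 2 arms, each in the near models, and for Cdkn1c in KPB25L. With relative log expression size factors in place of TMM, the call was lost for Cdkn2b (-0.18) under trametinib. A call was gained for Cdkn2c (-0.19) under carboplatin plus paclitaxel. With DESeq2, a call was gained for Cdkn2c (-0.19) under carboplatin plus paclitaxel. Without the filter on low counts, the call was lost for Cdkn2b (-0.20) under trametinib, Cdkn1b (-0.17) under the antibodies and Cdkn2d (0.15) for trametinib against erlotinib. The sign changed for Cdkn1b (0.0098) for the antibodies against carboplatin plus paclitaxel. On the authors' normalized table, tested by limma, the call was lost for Cdkn1b (-0.13) under the antibodies and Cdkn2c (0.13) and Cdkn2d (0.15) for the antibodies against carboplatin plus paclitaxel. A call was gained for Cdkn2c (-0.22) under erlotinib. The sign changed for Cdkn2c (0.0074) under the antibodies and Cdkn1b (0.0050) for the antibodies against carboplatin plus paclitaxel. With a single difference per model tested over models by limma, the call was lost for Cdkn1b (0.28), Cdkn2b (-0.26) and Cdkn2c (-0.31) under trametinib, Cdkn2d (-0.27) under erlotinib, Cdkn1b (-0.41) under carboplatin plus paclitaxel, Cdkn1b (-0.17) under the antibodies, Cdkn1c (0.50) and Cdkn2d (0.14) for trametinib against erlotinib and Cdkn2c (0.16) and Cdkn2d (0.19) for the antibodies against carboplatin plus paclitaxel. The sign changed for Cdkn1b (0.040) for the antibodies against carboplatin plus paclitaxel. Against the untreated tumours with set label 1 alone, the call was lost for Cdkn2b (-0.21) under trametinib, Cdkn1b (-0.24) under carboplatin plus paclitaxel and Cdkn1b (-0.11) under the antibodies. A call was gained for Cdkn2c (-0.25) under erlotinib and Cdkn2c (-0.30) under carboplatin plus paclitaxel. The sign changed for Cdkn2d (-0.12) under carboplatin plus paclitaxel and Cdkn2d (-0.014) under the antibodies. Without the 16 tumours highest in skeletal muscle markers, the call was lost for Cdkn2b (-0.17) under trametinib and Cdkn2c (0.15) for the antibodies against carboplatin plus paclitaxel. The sign changed for Cdkn2a (0.023) under trametinib and Cdkn2b (0.0012) under the antibodies. In the near models alone, the call was lost for Cdkn1c (0.72), Cdkn2b (-0.21) and Cdkn2c (-0.21) under trametinib, Cdkn2d (-0.19) under erlotinib and Cdkn2c (0.036) for the antibodies against carboplatin plus paclitaxel. The sign changed for Cdkn2a (0.029) and Cdkn2d (0.036) under trametinib, Cdkn1c (-0.028) under erlotinib, Cdkn1b (0.14), Cdkn2b (-0.23) and Cdkn2d (-0.21) under carboplatin plus paclitaxel, Cdkn1b (0.11), Cdkn2b (0.19) and Cdkn2d (-0.11) under the antibodies and Cdkn1b (0.16), Cdkn1c (0.12), Cdkn2a (-0.11) and Cdkn2d (-0.031) for the antibodies against carboplatin plus paclitaxel.

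Leaving out a model or a replicate number gave a range for each change whose call or sign moved. The ranges under trametinib were -0.10 to 0.086 for Cdkn2a, -0.24 to -0.12 for Cdkn2b and -0.13 to 0.0011 for Cdkn2d. The ranges under erlotinib were 0.090 to 0.20 for Cdkn1b, -0.14 to 0.060 for Cdkn2b and -0.31 to -0.19 for Cdkn2d. The ranges under carboplatin plus paclitaxel were -0.12 to 0.068 for Cdkn2a, -0.26 to -0.15 for Cdkn2c and -0.040 to 0.084 for Cdkn2d. The ranges under the antibodies were -0.24 to -0.15 for Cdkn1b, -0.058 to 0.20 for Cdkn1c, -0.10 to 0.097 for Cdkn2a, -0.078 to 0.072 for Cdkn2b, -0.10 to 0.015 for Cdkn2c and -0.020 to 0.054 for Cdkn2d. The ranges for trametinib against erlotinib were 0.43 to 0.72 for Cdkn1c, -0.10 to 0.12 for Cdkn2a, -0.22 to -0.088 for Cdkn2b and 0.066 to 0.18 for Cdkn2d. The ranges for the antibodies against carboplatin plus paclitaxel were -0.13 to 0.048 for Cdkn1b, -0.18 to 0.046 for Cdkn2b, 0.12 to 0.22 for Cdkn2c and 0.14 to 0.24 for Cdkn2d.

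For the F test of effects that differ by model (edgeR), adjusted p-values in the near models alone rose above the threshold for Cdkn1b (0.125), Cdkn1c (0.177) and Cdkn2c (0.150) under trametinib, Cdkn1b (0.482), Cdkn1c (0.114) and Cdkn2a (0.0887) under erlotinib, Cdkn1b (0.880), Cdkn1c (0.0832), Cdkn2a (0.0815), Cdkn2b (0.0999), Cdkn2c (0.290) and Cdkn2d (0.169) under carboplatin plus paclitaxel and Cdkn1b (0.0898), Cdkn1c (0.253), Cdkn2a (0.853) and Cdkn2c (0.841) under the antibodies. Cdkn2c under erlotinib instead gained a call in the near models (adjusted p = 0.0472) and with size factors (adjusted p = 0.0343). Without each replicate number in turn, adjusted p-values ran 0.00741 to 0.170 for Cdkn1b, 0.000582 to 0.106 for Cdkn1c, 0.000267 to 0.132 for Cdkn2b and 0.0132 to 0.0817 for Cdkn2d under trametinib, 0.00620 to 0.191 for Cdkn1b and 0.0327 to 0.192 for Cdkn2d under erlotinib, 0.00983 to 0.133 for Cdkn2a, 0.00703 to 0.416 for Cdkn2b, 0.00237 to 0.103 for Cdkn2c and 0.00456 to 0.167 for Cdkn2d under carboplatin plus paclitaxel and 0.156 to 0.217 for Cdkn1b, 0.0117 to 0.311 for Cdkn1c, 0.00712 to 0.120 for Cdkn2a and 0.0940 to 0.124 for Cdkn2c under the antibodies.

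Within single models, fits of that model and those 2 arms alone called 25 changes of the 6 genes under trametinib, 11 under erlotinib, 6 under carboplatin plus paclitaxel and 12 under the antibodies, against 11, 7, 20 and 2 in the fit of all tumours. Leaving out each replicate number gave 7 to 12 under trametinib, 4 to 7 under erlotinib, 9 to 12 under carboplatin plus paclitaxel and 0 to 1 under the antibodies. Shares of all genes are not given for these alternative fits, so their counts are no result about the 6 genes. Of the 40 called changes 39 kept their call with size factors, 34 without the tumours highest in muscle markers, an alternative chosen after seeing the data, and 17 in the fit of the model alone. That alternative left 1 call under the antibodies and changed the sign of Cdkn1c in KPB25L under carboplatin plus paclitaxel (0.50), which ranged from -4.08 to 0.73 without each replicate number.

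The number of genes called (edgeR, or limma where named above) depended on the same choices. Under trametinib, 6642 genes were called over all models and 4100 in the near models and 1559 with a difference per model. Fits under trametinib that left out a model or a replicate number called 4492 to 7404. Under erlotinib, 1030 genes were called over all models and 23 in the near models, 1571 against set label 1, 577 without the muscle-high tumours, 2768 on the authors' normalized table and 0 with a difference per model (961 at an unadjusted p under 0.05), with 1541 by DESeq2 over all models. Fits under erlotinib that left out a model or a replicate number called 57 to 1307, a shift of over 1.5 times without replicate number 1, 2, 3, KPB1-B or MMTV-Neu. Under carboplatin plus paclitaxel, 4446 genes were called over all models and 0 in the near models (1812 at an unadjusted p under 0.05), 1746 against set label 1 and 0 with a difference per model (2914 at an unadjusted p under 0.05), with 5272 by DESeq2 over all models. Fits under carboplatin plus paclitaxel that left out a model or a replicate number called 1783 to 5344, a shift of over 1.5 times without replicate number 1 or 3. Under the antibodies, 1984 genes were called over all models and 0 in the near models (4627 at an unadjusted p under 0.05), 944 against set label 1 and 0 with a difference per model (1686 at an unadjusted p under 0.05), with 2469 by DESeq2 over all models. Fits under the antibodies that left out a model or a replicate number called 195 to 3376, a shift of over 1.5 times without replicate number 1, 2, 3, MMTV-PyMT, p53RB-426, p53RB-626 or T12. For trametinib against erlotinib, 4254 genes were called over all models and 394 with a difference per model. Fits for trametinib against erlotinib that left out a model or a replicate number called 1697 or more, a shift of over 1.5 times without replicate number 1 or 2. For the antibodies against carboplatin plus paclitaxel, 3377 genes were called over all models and 0 in the near models (3299 at an unadjusted p under 0.05) and 0 with a difference per model (2530 at an unadjusted p under 0.05), with 3976 by DESeq2 over all models. Fits for the antibodies against carboplatin plus paclitaxel that left out a model or a replicate number called 387 or more, a shift of over 1.5 times without replicate number 1, 2 or 3. In the near models the test of effects that differ by model called 7243 against 14225 under trametinib, 3486 against 13266 under erlotinib, 481 against 12094 under carboplatin plus paclitaxel and 1 against 9186 under the antibodies over all models.

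No paired analysis was possible because the labels carry no replicate number shared between arms, and the numbers used here follow sample order. Depth limits Cdkn2a in E0771 and 4T1, with medians of 12 and 7.5 estimated counts per tumour.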
